A study of Homo sapiens with 6 samples.

Results

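Actin crosslinker and tropomyosin genes, 9 in all, were followed through TIRR iCLIP and RNA-seq of U2OS cells: the crosslinkers ACTN1, ACTN4 and FLNA, the tropomyosins TPM1, TPM2, TPM3 and TPM4, the branch-stabilising protein gene CTTN and the motor gene MYH9. They were taken by gene symbol, 9 of the 39020 genes listed in any of the 6 tables, and were proposed with earlier results of these data known. The set was selected on measured values, the gene shares of iCLIP and RNA-seq before and after irradiation, so the members' own values are a description; whether each passed the fit over all genes is stated with nothing read from it. All 9 were listed in both RNA-seq tables and 8 in all 4 iCLIP tables. FLNA was in none of the iCLIP tables.

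U2OS is a human osteosarcoma cell line. For iCLIP (genotype TIRR_FLAG), cells carried a stably transfected FLAG-tagged TIRR, ultraviolet light fixed RNA to protein, and RNA recovered with the tagged protein was sequenced from 2 untreated and 2 irradiated libraries. RNA-seq used cells labelled WT, 1 library per condition, which leaves it without a replicate check. Irradiated cells of both assays received 5 Gy of X-rays and had 4 h of recovery, per the labels, although the series' design text names gamma radiation for RNA-seq. Empty-vector cells were not analysed here, so no background was subtracted. Nothing in the labels says that replicates were separate cultures, and p-values therefore measure only library-to-library spread, possibly technical.

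Actin filaments are short-lived polymers, and the proteins bound along them set how they are bundled, branched and pulled. The alpha-actinins and filamin A tie filaments together, tropomyosins run along the filament as coiled-coil dimers and govern which other proteins may bind, cortactin holds branch points, and nonmuscle myosin IIA, whose heavy chain is MYH9, pulls on the filaments. Mesenchymal cells such as osteosarcoma cells use this set for stress fibres and adhesion. TIRR, the product of NUDT16L1, is known as a partner of the break repair protein 53BP1.

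The libraries were of unequal depth. In iCLIP 400723 to 799709 counts fell on genes, and in RNA-seq 13015406 (untreated) and 13023903 (irradiated). The dose was visible in both assays: the p53 target CDKN1A went from 21 and 34 to 99 and 173 iCLIP counts (7.63-fold, edgeR adjusted p = 9.6e-08) and an RNA-seq ratio of 3.45. MDM2, the ubiquitin ligase of p53, rose 5.15-fold in iCLIP (edgeR adjusted p = 9.6e-08) and had an RNA-seq ratio of 3.604. The 10 mesenchymal and osteoblast markers ranged widely in untreated RNA-seq, from 36294 counts for VIM, 35832 for COL1A1 and 23955 for SPARC to 288 for SPP1, 113 for ALPL, 6 for COL1A2 and 3 for BGLAP. The 8 blood cell markers together took 0.000115% of the untreated RNA-seq gene counts. Of the muscle markers MYOD1, MYOG and CKM were in none of the tables, and DES, the muscle intermediate filament gene, had 2 counts before and 8 after irradiation. Of the 12 muscle markers 9 were listed in any table, and their summed RNA-seq share was 0.0191% before and 0.0148% after irradiation. Most of it came from SMTN, the gene of smoothelin, with 1882 and 1571 counts, and MYH11, with 496 and 233.

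The promoters bear on the members because the factor SRF, with its actin-sensing partners, is known to drive many cytoskeleton genes through the CArG box. Windows of 250 bases before to 50 bases after annotated starts came from RefSeq (GRCh38.p14), which held 16 windows for 8 of the members. CTTN had no entry. A CArG box (its 6 central bases all A or T) occurred in 3 of these 16 windows, those of ACTN1, TPM4 and FLNA, against 1.29% of 35116 promoter windows of the same length. GGGCGG on either strand occurred in 13 of the 16, against 45.0% of all, and TATAAA on either strand in 1 of the 16, against 11.5%. The 4 windows below are the 3 with a CArG box and the single window of TPM1, the member with the lowest iCLIP fold change. They are written 5′ to 3′ on the gene's strand, and capitals mark the CArG box and GGGCGG or CCGCCC. The paired GGGCGG of TPM1 overlap each other.
ACTN1, minus strand, chr14:68977517-68977816: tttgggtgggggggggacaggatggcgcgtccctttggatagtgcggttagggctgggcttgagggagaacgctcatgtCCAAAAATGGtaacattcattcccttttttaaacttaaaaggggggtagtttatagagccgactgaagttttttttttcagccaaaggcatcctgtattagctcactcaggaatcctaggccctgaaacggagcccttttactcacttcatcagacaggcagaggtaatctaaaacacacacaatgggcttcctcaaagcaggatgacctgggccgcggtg
TPM4, plus strand, chr19:16067288-16067587: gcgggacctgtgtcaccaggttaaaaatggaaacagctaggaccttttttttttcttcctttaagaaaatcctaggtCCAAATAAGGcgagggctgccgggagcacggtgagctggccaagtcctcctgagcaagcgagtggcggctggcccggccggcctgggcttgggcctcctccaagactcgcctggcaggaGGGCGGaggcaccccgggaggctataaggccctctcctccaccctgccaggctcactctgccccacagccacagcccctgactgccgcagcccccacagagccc
FLNA, minus strand, chrX:154374585-154374884: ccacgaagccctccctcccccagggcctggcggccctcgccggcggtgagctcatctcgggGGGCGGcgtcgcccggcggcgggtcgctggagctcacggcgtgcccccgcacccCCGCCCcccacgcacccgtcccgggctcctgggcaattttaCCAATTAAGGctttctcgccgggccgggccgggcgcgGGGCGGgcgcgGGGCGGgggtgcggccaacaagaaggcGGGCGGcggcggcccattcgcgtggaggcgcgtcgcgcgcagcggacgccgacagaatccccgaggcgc
TPM1, plus strand, chr15:63048239-63048538: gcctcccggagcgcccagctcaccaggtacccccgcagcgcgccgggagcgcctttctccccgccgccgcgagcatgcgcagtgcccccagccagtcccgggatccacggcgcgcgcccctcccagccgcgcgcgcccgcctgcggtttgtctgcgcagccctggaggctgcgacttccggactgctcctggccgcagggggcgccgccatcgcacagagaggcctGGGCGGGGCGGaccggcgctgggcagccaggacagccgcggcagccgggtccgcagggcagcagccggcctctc
The box of ACTN1, CCAAAAATGG, began 171 bases before the start, that of TPM4, CCAAATAAGG, 173 bases before it, and that of FLNA, CCAATTAAGG, 94 bases before it. A match is a run of letters and was not tested for binding. The ACTN1 window belongs to 1 of 4 annotated starts of that gene, and the other 3 windows held no CArG box. The TPM4 window is likewise 1 of 3, with no box in the other 2. The TPM1 window, from 63048239, lies inside the gene, which begins at 63042747, so its outermost start was not scanned. The same holds for TPM3, on the minus strand, whose gene reaches 154192100 and whose windows end at 154183468 and 154178454.

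The iCLIP values before and after the dose are described on counts scaled to library size, and since they entered the choice of the genes, the calls are no independent evidence of a change. Of the 8 listed members, ACTN1 and CTTN rose and TPM1 fell after irradiation, while ACTN4, MYH9, TPM2, TPM3 and TPM4 did not pass the threshold (edgeR quasi-likelihood test over all 9230 tested genes, Benjamini-Hochberg adjusted p under 0.05). Across all tested genes 3.50% passed, 2.43% upward and 1.07% downward, so that 69.3% of the calls were rises (58.2% when scaled by library totals). Untreated and irradiated libraries were fully separated for 6 of the 8 members, beside 44.0% of all tested genes. The median log2 fold change was 0.07 over the 8 members and 0.00157 over all tested genes, so members moved in both directions about a centre near 0.

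ACTN1 encodes the alpha-actinin of stress fibres and focal adhesions (ENSG00000072110, chromosome 14, 68874128 to 68979302, hg38). Its CPM (counts scaled to a TMM-adjusted library of 1000000) were 1422 and 1252 without and 2407 and 2338 with irradiation. Both irradiated libraries lay far above both untreated ones. The mean went from 1337 ± 120.3 to 2373 ± 49.2 (SD, n = 2 each), a log2 fold change of 0.83 ± 0.11 (SE), or 1.77-fold. With each library left out in turn the log2 fold change was 0.73 to 0.91. As a share of gene counts, ACTN1 went from 0.137% ± 0.0121 to 0.232% ± 0.00263 (SD, n = 2 each).

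ACTN4, the closely related second nonmuscle alpha-actinin (ENSG00000130402, chromosome 19, 38647649 to 38731589), did not share that rise. Its CPM were 894 and 792 before and 799.9 and 910.3 after irradiation, and the groups overlapped. The log2 fold change was 0.03 ± 0.13 (SE), and its sign turned under several other settings. The ACTN1 to ACTN4 count ratio was 1.59 (95% exact interval 1.45 to 1.75) and 1.58 (1.43 to 1.75) in the untreated iCLIP libraries. It was 3.01 (2.64 to 3.43) and 2.57 (2.33 to 2.83) in the irradiated ones, above both. In RNA-seq the ratio was 1.95 (1.89 to 2.01) before and 2.14 (2.08 to 2.21) after irradiation. Irradiated iCLIP thus held relatively more ACTN1 than either RNA-seq library, and untreated iCLIP relatively less.

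CTTN encodes cortactin, which binds the Arp2/3 complex and filament branches (ENSG00000085733, chromosome 11, 70398529 to 70436575). Its CPM were 575 and 509.9 in untreated and 787 and 812 in irradiated libraries, with no overlap. The log2 fold change was 0.56 ± 0.13 (SE), or 1.48-fold. It no longer passed without untreated library 1 (0.64 ± 0.21) or without untreated library 2 (0.47 ± 0.21). The divergent transcript CTTN-DT had 22 and 25 iCLIP counts before and 7 and 16 after irradiation.

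MYH9, the heavy chain of nonmuscle myosin IIA (ENSG00000100345, chromosome 22, 36281280 to 36387967), had CPM of 405.1 and 418.4 before and 345 and 384 after irradiation. Both irradiated libraries were a little below the untreated ones. The log2 fold change was -0.17 ± 0.14 (SE), and MYH9 did not pass.

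**Figure D1:**
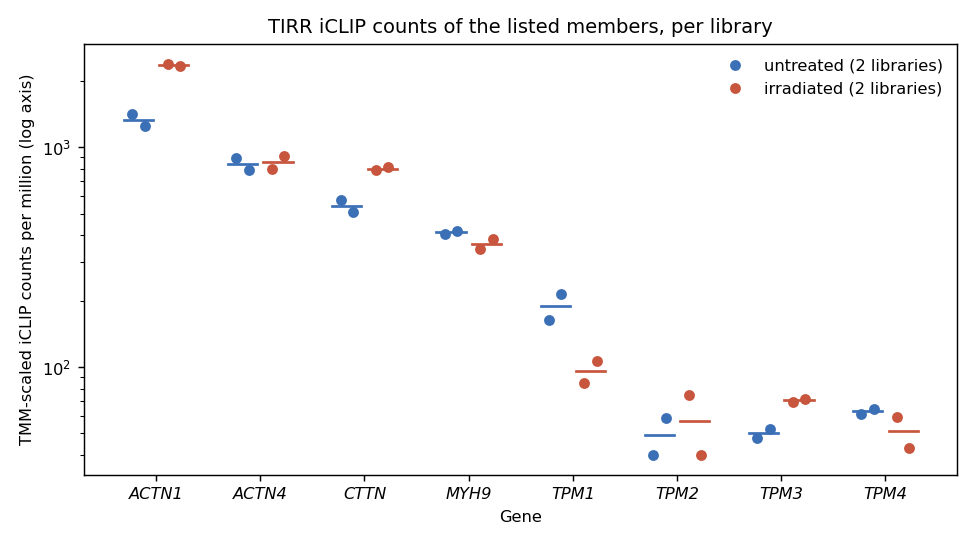
TMM-scaled iCLIP CPM (log axis) of the 8 members listed in iCLIP, with 1 point per library and a line at the mean of the 2 libraries of a group. ACTN1 and CTTN were higher in both irradiated libraries, TPM1 was lower in both, and ACTN4 and TPM2 overlapped.

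The 4 tropomyosin genes each make several proteins from alternative starts and exons, which gene counts do not separate. TPM1 (ENSG00000140416, chromosome 15, 63042747 to 63071915) had CPM of 163.8 and 216 without and 84.9 and 107 with irradiation. Both irradiated libraries lay below both untreated ones. The mean fell from 189.9 ± 36.8 to 95.99 ± 15.7 (SD, n = 2 each), a log2 fold change of -0.95 ± 0.20 (SE), or 1.94-fold lower. Its call rested on 131, 177, 33 and 70 raw counts, and it no longer passed without untreated library 2 (-0.75 ± 0.26). Without that library ACTN1 was the only member past the threshold.

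The other tropomyosins were sparser, and depth limits what can be seen of them. TPM3 (ENSG00000143549, chromosome 1, 154155308 to 154192100) had 38 and 43 counts without and 27 and 47 with irradiation, which are CPM of 47.5 and 52.5, then 69.4 and 71.9. Its irradiated libraries were the higher ones, with a log2 fold change of 0.50 ± 0.24 (SE) that did not pass. TPM4 (ENSG00000167460, chromosome 19, 16067538 to 16103002) had 49, 53, 23 and 28 counts in the same order, with a log2 fold change of -0.35 ± 0.26 (SE). TPM2 (ENSG00000198467, chromosome 9, 35681993 to 35690056) had 32, 48, 29 and 26 counts and a log2 fold change of 0.12 ± 0.31 (SE), and its groups overlapped. For these 3 genes no change was detectable at this depth, with SEs of 0.24 to 0.31 beside 0.11 for ACTN1.

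Within the tropomyosin counts the balance shifted away from TPM1. TPM1 gave 52.4% (exact Clopper-Pearson 95% interval 46.01 to 58.7) of 250 and 55.1% (49.5 to 60.7) of 321 counts in the untreated iCLIP libraries. It gave 29.5% (21.2 to 38.8) of 112 and 40.9% (33.5 to 48.7) of 171 counts in the irradiated ones. The intervals of the irradiated libraries overlap each other, and that of irradiated library 2 reaches into that of untreated library 1. In RNA-seq TPM1 gave 20.5% before and 21.4% after irradiation, and TPM3 gave the most, 36.3% and 37.6%. TPM3 gave 15.2% and 13.4% of the tropomyosin counts in untreated iCLIP and 24.1% and 27.5% in irradiated iCLIP. The summed tropomyosin share of gene counts was 0.0320% and 0.0401% in untreated and 0.0279% and 0.0257% in irradiated iCLIP, against 0.125% and 0.129% in RNA-seq. The intervals cover counting error only.

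**Figure D2:**
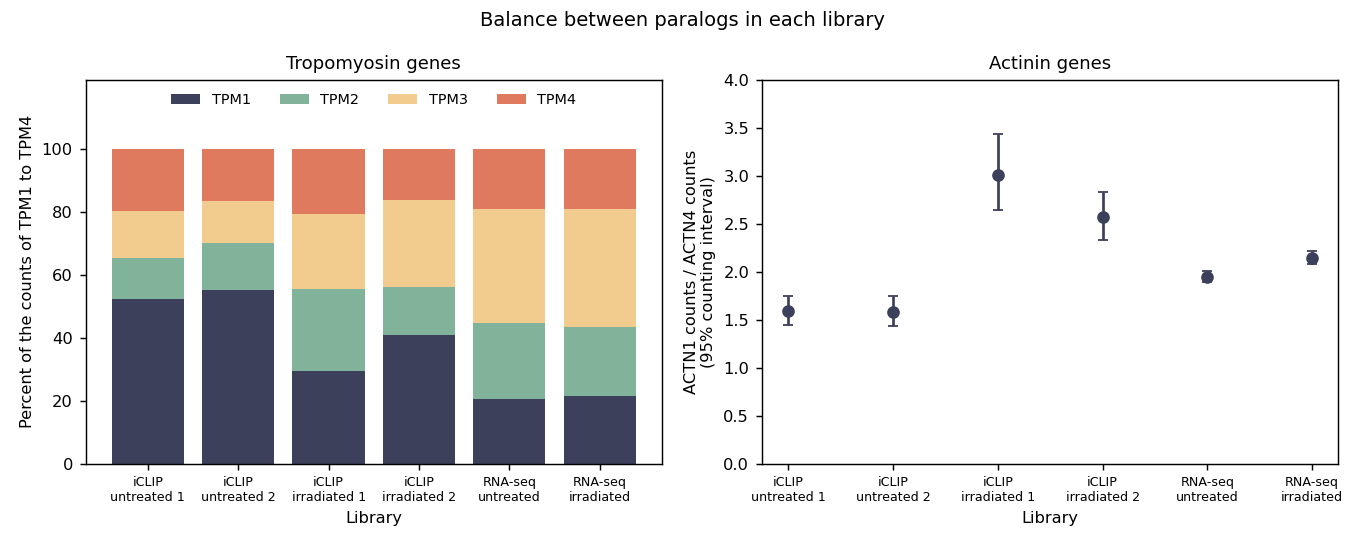
Left, the percent of the counts of the 4 tropomyosin genes that each gave in the 4 iCLIP and 2 RNA-seq libraries. Right, ACTN1 counts over ACTN4 counts per library with exact 95% counting intervals. TPM1 was the largest tropomyosin in untreated iCLIP (52.4% and 55.1%) and not in RNA-seq, and the actinin ratio was highest in irradiated iCLIP (3.01 and 2.57).

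The same comparison in RNA-seq, which asked whether expression of the genes moved with the dose, gave small differences. FLNA, the gene of filamin A (ENSG00000196924, chromosome X, 154348531 to 154374634), had the most counts of the 9, 25005 in untreated and 28152 in irradiated cells. Its scaled ratio was 1.12 (exact 95% interval for counting error 1.099 to 1.14). For MYH9 the counts were 9619 and 12028, with the largest ratio of the members, 1.24 (1.21 to 1.28). TPM2, with 3911 and 3683 counts, had the smallest, 0.935 (0.893 to 0.978). ACTN1 had 11257 and 11949 counts (ratio 1.05), ACTN4 5776 and 5573 (0.958), CTTN 1459 and 1593 (1.08), TPM1 3346 and 3594 (1.07), TPM3 5910 and 6306 (1.06) and TPM4 3125 and 3175 (1.01). None of the 9 reached a ratio of 2-fold with an interval beyond 1.5-fold, a size rule that 1.49% of 12977 genes with at least 100 counts passed. The median log2 ratio was 0.08 over the members and 0.00296 over those genes.

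Set side by side, the 3 members called in iCLIP had RNA-seq ratios near 1. ACTN1 changed 1.77-fold in iCLIP beside an RNA-seq ratio of 1.05, and CTTN 1.48-fold beside 1.08. TPM1 was 1.94-fold lower in iCLIP beside an RNA-seq ratio of 1.07. MYH9, not called in iCLIP, had a negative iCLIP log2 fold change beside the highest RNA-seq ratio of the members. The difference between the assays was not tested, since RNA-seq has 1 library per condition and other cells. Over the 183 genes that rose in iCLIP and had at least 100 RNA-seq counts the median RNA-seq ratio was 1.37, and over the 86 that fell it was 0.6995. Of these, 70 of the 183 (38.3%) and 27 of the 86 (31.4%) had an RNA-seq ratio between 0.8 and its inverse, as ACTN1, CTTN and TPM1 did.

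**Figure D3:**
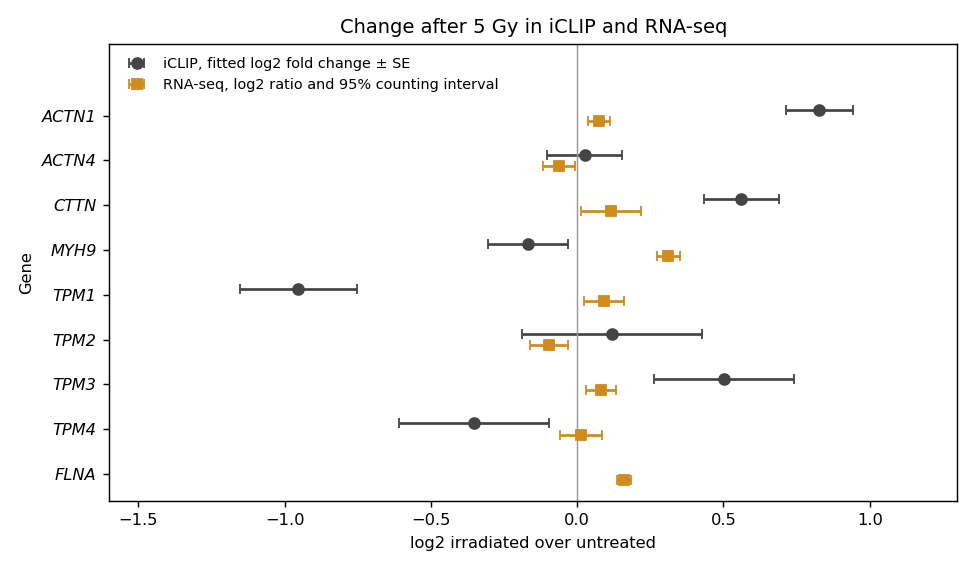
log2 change of irradiated over untreated cells for each member, as the fitted iCLIP log2 fold change ± SE (circles, 2 against 2 libraries) and as the RNA-seq log2 ratio with its 95% counting interval (squares, 1 against 1). RNA-seq ratios stayed between 0.935 and 1.24, while the iCLIP changes ran from -0.95 (TPM1) to 0.83 (ACTN1), and FLNA has an RNA-seq value only.

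The 2 assays were set beside each other as the iCLIP share of gene counts divided by the RNA-seq share of the same condition. RNA-seq came from WT cells with 1 library per condition, and no iCLIP background was subtracted. The ratio also runs with gene length, so it is no measure of TIRR binding per RNA. CTTN stood highest, with ratios of 5.25 and 4.67 without and 6.25 and 6.53 with irradiation. ACTN4 followed with 2.06 and 1.83 untreated and 1.82 and 2.09 irradiated. ACTN1 went from 1.68 and 1.48 to 2.55 and 2.506, so that it passed from below ACTN4 to above it. These 3 genes lay above their RNA-seq share in every library.

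The remaining 5 lay below their RNA-seq share in every library. TPM1 had ratios of 0.654 and 0.863 before and 0.303 and 0.384 after irradiation. MYH9 had 0.561 and 0.581, then 0.363 and 0.4096, so that its lower ratio after the dose combined a lower mean iCLIP share (0.0422%, then 0.0356%) with a higher RNA-seq share (0.0739%, then 0.0924%). TPM4 had 0.264 and 0.279 before and 0.241 and 0.176 after, and TPM2 had 0.138, 0.202, 0.260 and 0.141. TPM3 was lowest, with 0.108 and 0.1198 before and 0.142 and 0.148 after irradiation, 8.78-fold under its RNA-seq share in untreated cells.

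Among the genes listed in iCLIP with at least 50 RNA-seq counts, 24.1% (untreated) and 23.8% (irradiated) were at least 4-fold lower in iCLIP, and 15.2% and 14.5% at least 4-fold higher. With genes absent from the iCLIP tables counted as 0, the lower share was 41.3% and 41.0%. Of the 8 members 2 were at least 4-fold lower in untreated cells (TPM2 and TPM3) and 3 in irradiated cells (also TPM4), and CTTN was at least 4-fold higher in both. The median log2 ratio of the 8 was -0.61 untreated and -1.46 irradiated, beside -0.23 and -0.29 over the listed genes. In both conditions it lay between TPM1 and MYH9, whose ratios were lower after irradiation, as was that of TPM4. Mean ratios of ACTN1, CTTN, TPM2 and TPM3 were higher after irradiation, and that of ACTN4 was nearly unchanged. The summed share of the 8 was 0.369% and 0.345% in untreated and 0.449% and 0.463% in irradiated iCLIP. In RNA-seq it was 0.341% before and 0.368% after irradiation. CTTN lay at the 88.2 percentile of the listed genes in untreated cells and TPM3 at the 12.2 percentile.

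**Figure D4:**
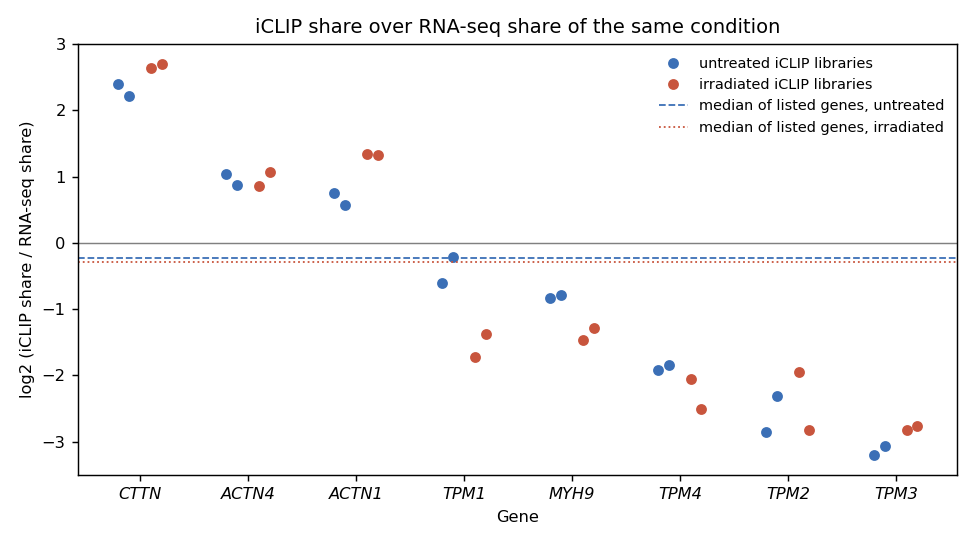
log2 of the iCLIP share over the RNA-seq share of the same condition, with 1 point per iCLIP library, genes ordered by the untreated mean, and dashed (untreated) and dotted (irradiated) lines at the medians of the listed genes. CTTN, ACTN4 and ACTN1 lay above 0 in every library, and the other 5 members lay below it.

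These ratios run with the deposited gene length. Over 11385 genes listed in iCLIP, the ratio in untreated cells rose with that length (Spearman rho 0.65 across genes). This rho is a description, since genes share the libraries. The length includes introns for the members. Some other genes had short lengths, such as RHOA (0.947 kb, log2 ratio -8.38), SPAG5 (1.555 kb, -6.83) and KRIT1 (1.732 kb, 0.90). Whether such lengths cover the whole gene was not checked, and these genes entered rho. Over the 8 members rho was 0.29. In irradiated cells rho was 0.61 over the listed genes and 0.45 over the members. CTTN at 38181 bases, TPM3 at 38957 and TPM4 at 35982 have nearly the same length and ratios of 4.95, 0.114 and 0.271. ACTN1 (105013 bases) and MYH9 (106670 bases) likewise had 1.58 and 0.571.

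**Figure D5:**
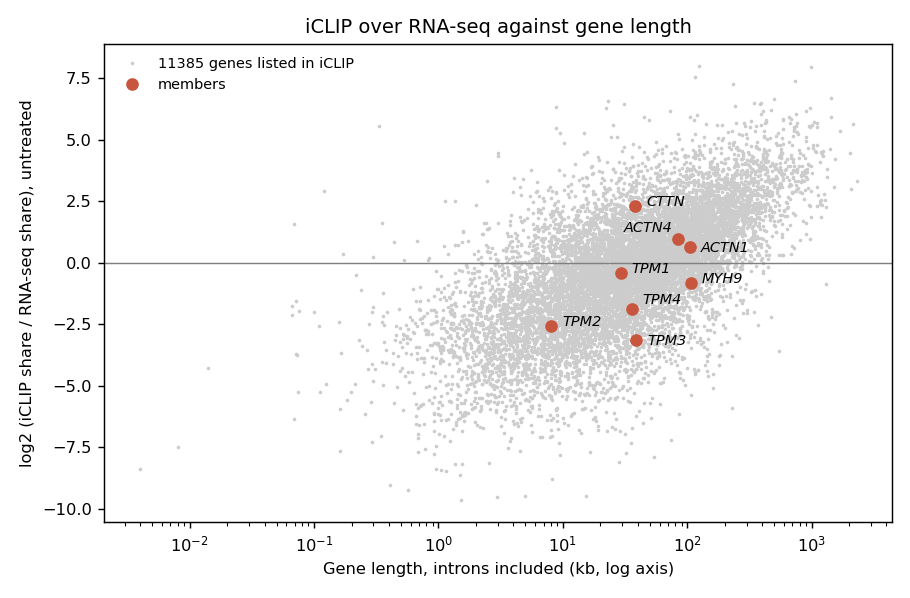
log2 of the iCLIP share over the RNA-seq share in untreated cells (mean of 2 libraries) against the deposited gene length (log axis). Grey points are 11385 genes listed in iCLIP, and red points are the 8 members. The length includes introns for the members and was not checked for the other genes. The cloud rises with length (rho 0.65), and CTTN, TPM3 and TPM4 lie far apart at nearly equal length.

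Levels of different genes were compared per length, as counts per kb of gene and per 1000000 gene counts. In untreated iCLIP this level was 14.5 ± 1.21 for CTTN, 13.03 ± 1.15 for ACTN1 and 10.3 ± 0.866 for ACTN4 (SD, n = 2 each). CTTN and ACTN1 overlapped between libraries, and ACTN4 lay below both. TPM1 had 6.64 ± 1.299 and TPM2 6.26 ± 1.67, which overlapped, followed by MYH9 with 3.95 ± 0.0967, TPM4 with 1.79 ± 0.0710 and TPM3 with 1.31 ± 0.0939 (SD, n = 2 each), which did not overlap with each other. After irradiation ACTN1 had 22.1 ± 0.251 and CTTN 20.5 ± 0.651, no longer overlapping, and TPM1 had 3.204 ± 0.554, which overlapped with MYH9 at 3.34 ± 0.286. On the same scale the RNA-seq order in untreated cells was FLNA (73.6), TPM2 (37.3), TPM3 (11.7), TPM1 (8.78), ACTN1 (8.24), MYH9 (6.93), TPM4 (6.67), ACTN4 (5.29) and CTTN (2.94). CTTN was thus last in RNA-seq and first in untreated iCLIP. The length counts introns, so the RNA-seq values are no levels per length of mRNA.

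FLNA has no iCLIP value. The lowest count listed in any table was 1, so a gene with 0 counts and a gene left out of the counting cannot be told apart. Of 3090 genes with at least 1000 untreated RNA-seq counts, 642 (20.8%) were in none of the 4 iCLIP tables, among them ITGB1, MSN and FSCN1, and of 1985 such genes of 20 kb or longer 361 (18.2%) were absent. Other rows also touch members. TPM1-AS overlaps TPM1, had 111 and 126 RNA-seq counts and was not listed in iCLIP. HMGN1P3, BANF1P1 and LOC124903336 overlap ACTN1, and CAPN12 and LOC107985291 overlap ACTN4. RN7SL431P overlaps TPM3, and MIR6819 overlaps MYH9. The processed copy TPM3P9 had 60 and 83 RNA-seq counts. No source used here gives the strand setting, so reads of overlapping genes, and reads shared with near-identical copies, cannot be told apart.

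Around the members, 125 other cytoskeleton genes were grouped in 8 lists, of which 99 were listed in iCLIP and 83 tested. Of the 83, 2 rose and 0 fell (edgeR quasi-likelihood test), beside 3.50% called of all tested genes, and their median log2 fold change was -0.01. At an unadjusted p under 0.05 in edgeR, 4 rose and 6 fell, beside 1340 of all 9230 tested genes in either direction. DESeq2 called 1 rise and 0 falls, beside 123 calls over all genes, with no adjusted p for 47 of the 83. In RNA-seq 1 of 114 passed the size rule, upward, beside 1.49% of all. The gene that passed in both assays was FHL2, a LIM protein of the SRF program, with 113 and 118 iCLIP counts before and 92 and 203 after irradiation (log2 fold change 0.96 ± 0.17 SE, edgeR adjusted p = 0.00176). Its RNA-seq counts were 1479 and 3353, a ratio of 2.25 (95% counting interval 2.12 to 2.39). FHL2 overlaps C2orf49 on chromosome 2, and how reads were split between them was not tested. The other called gene was ACTA2, smooth muscle actin, with 1, 7, 10 and 21 iCLIP counts (log2 fold change 2.54 ± 0.58 SE, edgeR adjusted p = 0.0181). ACTA2 overlaps the p53 target FAS on chromosome 10, which had 5, 3, 12 and 21 iCLIP counts (6.20-fold, edgeR adjusted p = 0.00478), and how reads were split between them was not tested. ACTA2 lost its call without untreated library 1 (edgeR adjusted p = 0.163) or irradiated library 2 (0.205).

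Of the actin genes, the abundant ACTB and ACTG1 lay far below their RNA-seq share in iCLIP. ACTB, cytoplasmic beta-actin, had 91924 RNA-seq counts in untreated cells but 127 and 162 iCLIP counts, a log2 ratio of shares of -5.28, and ACTG1, gamma-actin, had 22053 and then 16 and 28, a log2 ratio of -5.95. ACTA2 had a log2 ratio of -0.61, which rested on only 1 and 7 iCLIP counts and 84 RNA-seq counts in untreated cells. ACTA1, ACTG2 and ACTC1 had at most 5 counts in any library. Neither ACTB nor ACTG1 passed after irradiation (log2 fold changes 0.27 and 0.42, edgeR adjusted p = 0.521 and 0.657). Of 11 tested crosslinkers and bundlers none passed, with a median log2 fold change of -0.27. Of the 11, 2 fell at an unadjusted p under 0.05 in edgeR, beside 1340 of all 9230 tested genes in either direction. SPTBN1, a spectrin, had -0.29 ± 0.15 (SE, edgeR adjusted p = 0.380) and DBN1, drebrin, -0.27 ± 0.19 (SE, 0.569). Of 7 tropomyosin partners, with CNN2 and CNN3, the calponins, at 0.23 and -0.12, none passed (edgeR adjusted p = 0.5195 and 0.846).

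None passed among 8 nonmuscle myosin II genes (median 0.07), 14 of Arp2/3 branching (-0.02), 19 of filament turnover and nucleation (0.00874) or 15 of focal adhesion (-0.02). ROCK2, a kinase that raises myosin activity, had a log2 fold change of 0.10 and PPP1CB, the myosin phosphatase subunit, 0.04. NCKAP1, a subunit of the WAVE complex that turns on Arp2/3, had 0.30 and ACTR2, a subunit of Arp2/3, 0.02. DIAPH3 and DIAPH2, formins that elongate filaments, had -0.49 and 0.31, and PTK2, focal adhesion kinase, and TNS1, tensin, 0.27 and -0.18 (edgeR adjusted p from 0.0861 for DIAPH3 to 0.982 for ACTR2 over these 8 genes). The RNA-seq medians of the 8 lists ran from a log2 ratio of -0.13 (Arp2/3) to 0.21 (actins). In the SRF program, MRTFA, the coactivator of SRF, had -0.15 (edgeR adjusted p = 0.742). Among markers, RUNX2, the osteoblast transcription factor, fell in iCLIP (log2 fold change -0.63 ± 0.12 SE, edgeR adjusted p = 0.00426), a call lost without untreated library 1 (0.0550). MYH11, smooth muscle myosin, had 496 RNA-seq counts before and 233 after irradiation, the only muscle marker past the size rule.

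Among the genes whose profile was nearest to the median profile of the 8 listed members, by Euclidean distance of log2 (CPM + 1) over the 6 libraries, were ITGB5 (0.446), NASP (0.637), HUWE1 (0.707) and SEPTIN7 (0.714). ITGB5 had 209, 207, 84 and 146 iCLIP counts and 4527 and 4629 RNA-seq counts. None of these 4 passed the iCLIP threshold, or an unadjusted p under 0.05 (edgeR adjusted p from 0.461 to 0.894).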

How the data were processed

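Each deposited table gives unscaled cDNA counts, whole numbers, with 1 line per listed gene and 1 intergenic line. The deposited gene length (another column, in bases) includes introns for the members and was not checked for other genes. The build is hg38 and kallisto 0.44.0 is named for RNA-seq, per the submitters' processing notes; its role, the aligner, duplicate removal, annotation release and strandedness: not given in the sources used here. Intergenic counts (30.6% to 31.3% of iCLIP and 44.4% of RNA-seq counts) entered neither library sizes nor tests. Per table, 99.75% to 99.96% of gene identifiers matched the name table.

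The 4 iCLIP libraries were compared with the edgeR 4.0.16 quasi-likelihood F test (R 4.3.3, TMM, default filterByExpr, Benjamini-Hochberg over all genes, two-sided, threshold 0.05). SE is the log2 fold change over the root of F. RNA-seq ratios are TMM-scaled with exact conditional 95% intervals, and shares carry exact Clopper-Pearson intervals, all for counting error only. Ratios of iCLIP to RNA-seq shares used a prior count of 0.5. DESeq2 1.42.0 was an alternative. The edgeR step was run on simulated counts with the same dispersion for every gene, which does not measure the error of the calls given here. Python 3.11.15 with pandas 2.3.3, scipy 1.17.1 and matplotlib 3.10.9 did the rest. Chi-square per degree of freedom between replicates was 1.51 (untreated) and 2.12 (irradiated), above the 1 of counting error alone.

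The members and lists were chosen with earlier results of these data known. Named genes are all members, the 2 genes of each cytoskeleton list with the most iCLIP counts and those past a threshold (at most 6), CDKN1A, MDM2, and the 5 genes nearest in profile, of which 1 is not reported here. NUDT16L1, for TIRR, had 25, 32, 19 and 42 iCLIP counts and 208 and 184 RNA-seq counts. FAS, ACTA1, ACTG2, ACTC1, ITGB1, MSN, FSCN1 and the single markers (VIM, COL1A1, COL1A2, SPARC, SPP1, ALPL, BGLAP, DES, SMTN, RUNX2, MYH11, MYOD1, MYOG, CKM) were named after their values were seen. Of the marker lists, 1 of 4 tested mesenchymal genes was called and none of 1 muscle, 1 epithelial and 1 endothelial gene; the epithelial list took 0.0512% and the endothelial list 0.000907% of untreated RNA-seq gene counts.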

Additional observations from a re-analysis of the deposited data

How the results depend on the processing

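In iCLIP 323 genes passed, against 123 with DESeq2, 167 with all libraries thinned to equal depth and 190 with the replicate block, in which same-numbered libraries share a term; leaving out 1 library gave 186 to 421. The 3 member calls stayed 3 in DESeq2, with library totals, with no filter or a stricter one and after thinning, became 2 with the replicate block (CTTN: log2 fold change 0.56 ± 0.16 SE) and ran from 1 to 3 with 1 library left out. DESeq2 gave no adjusted p for TPM2, TPM3 and TPM4. Each setting refits libraries whose values entered the choice of the members, so a kept member call is no independent evidence of a change. The labels do not say whether same-numbered libraries are paired. Their deviations from the group means had a correlation of -0.08 over 9230 genes, which cannot exclude shared handling, since deviations also hold counting error.

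ACTN4 turned sign with DESeq2 (-0.00435), library totals (-0.0418), no filter (-0.00834), thinning (-0.00279) and without untreated library 2 (-0.0687) or irradiated library 2 (-0.0739), running from -0.0739 to 0.112 with 1 library left out. TPM2 turned sign after thinning (-0.0037) and without untreated library 1 (-0.126) or irradiated library 1 (-0.310), running from -0.310 to 0.594; the cause was not tested. ACTA2 lost its call after thinning (edgeR adjusted p = 0.193) and was not tested under the stricter filter, and RUNX2 with the replicate block (edgeR adjusted p = 0.0550) and without untreated library 1 (0.0550).

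With a minimum of 500 counts, 99 genes passed the RNA-seq size rule, against 194, as fewer genes are eligible. With all cDNA as the denominator the members' median log2 ratio of iCLIP to RNA-seq was -0.29 untreated and -1.15 irradiated, as more RNA-seq counts are intergenic. The genes at least 4-fold lower in iCLIP, 6070 and 6042, became 3036 and 2311 with a prior count of 5, 2802 and 2875 with a minimum of 500 RNA-seq counts, and 2747 and 2718 over genes listed in iCLIP, a choice made after seeing the data. No member's RNA-seq ratio left its 95% interval with total gene counts as scale. With 23 to 177 counts per library, the tropomyosin genes limit what iCLIP can show. Levels per coding length and identity between the members' proteins were planned and not run.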
